A study of Mus musculus with 2 samples.

Results

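The genes described here are the histone genes of the replication clusters, the gene arrays that supply most of the histone protein a cell needs when it copies its DNA. They were taken as every gene whose symbol starts with Hist1h, Hist2h, Hist3h or Hist4h, which gave 67 of the 31053 genes in the files. The members were 6 genes for linker histone H1, 18 for H2A, 18 for H2B, 12 for H3 and 13 for H4. Of them 54 lie on chromosome 13 (Hist1h), 10 on chromosome 3 (Hist2h), 2 on chromosome 11 (Hist3h) and 1 on chromosome 6 (Hist4h).

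RNA of single cells was counted in tongue tumours of wild type C57BL/6 mice. Tumours had been induced with 4NQO, a chemical carcinogen, in both groups. The first group was then treated with JQ1, which blocks the bromodomains by which BET proteins read acetylated histones, and the other with control, for 10 days each. Each group gave 1 library, from a number of mice and tumours that the labels do not state. Without replicates nothing here was tested statistically. Values in brackets are 95% intervals (exact Poisson for levels, exact conditional for ratios, Clopper-Pearson for shares), which cover counting error only.

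Histone genes of these clusters are unusual among genes read by RNA polymerase II. Most are switched on together as a cell enters S phase, through the coactivator Npat, and their messages end in a short stem-loop bound by the protein Slbp in place of a poly(A) tail. The messages are degraded when DNA synthesis ends. Some members can also be read past the stem-loop to a downstream poly(A) signal, which happens in cells that have stopped dividing. The kit used here primes on poly(A), so messages with a tail, or with a run of A bases inside, are those it can count, and a level below is a level of such messages and not of histone RNA as a whole. Several copies are nearly identical in sequence, and no source used here states how reads matching more than 1 copy were counted, so values of single copies are uncertain to that extent.

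The stem-loop is shown first because the members differ in what is annotated after it. In GENCODE M21 transcripts (GRCm38) a stem-loop was searched as 16 bases with a stem of 6 base pairs of fixed pattern, and 45 of the 67 members held one. Several of the others have short annotated transcripts, such as 381 bases in Hist1h2bn and 393 in Hist1h2ak. For these, no match does not show that the gene lacks a stem-loop. The most frequent form, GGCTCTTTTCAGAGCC, was found in 25 members, and 7 held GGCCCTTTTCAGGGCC. The sites below are written 5′ to 3′ with the stem-loop in capitals and up to 5 bases on each side. First come members with a level at least 2-fold higher in cycling cells (Hist1h2bj, Hist1h2ap, Hist1h2ae, Hist1h4i and Hist1h1e). Then come members under 2-fold, found at similar levels in cells that do not cycle (Hist1h1c, Hist3h2a and Hist4h4).
Hist1h2bj, chr13:22043633-22043658, plus strand: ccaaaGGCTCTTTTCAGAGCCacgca
Hist1h2ap, chr13:21833026-21833049, minus strand: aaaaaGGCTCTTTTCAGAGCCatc
Hist1h2ae, chr13:23570663-23570688, minus strand: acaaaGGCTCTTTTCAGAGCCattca
Hist1h4i, chr13:22040961-22040986, minus strand: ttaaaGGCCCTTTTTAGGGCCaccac
Hist1h1e, chr13:23621777-23621802, minus strand: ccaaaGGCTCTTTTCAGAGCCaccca
Hist1h1c, chr13:23739507-23739532, plus strand: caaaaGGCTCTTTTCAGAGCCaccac
Hist3h2a, chr11:58955167-58955192, plus strand: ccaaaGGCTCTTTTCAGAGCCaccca
Hist4h4, chr6:136803993-136804018, minus strand: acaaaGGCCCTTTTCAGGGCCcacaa
The form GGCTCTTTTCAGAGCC stands in 4 of the first 5 sites and in 2 of the last 3. After the stem-loop the annotation continues for 23 bases in Hist1h2bj, 3 in Hist1h2ap, 151 in Hist1h2ae, 330 in Hist1h4i and 1153 in Hist1h1e. It continues for 840 bases in Hist1h1c, 1643 in Hist3h2a and 2445 in Hist4h4.

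Promoters were read from RefSeq (GRCm38.p6) for 61 members, as 250 bases before to 50 after the start, and searched on both strands. CCAAT was found in 52 of 61 members against 37.4% of all 32851 promoters in the table, and the TATAAA box in 35 of 61 against 13.6%. The octamer ATTTGCAT was found in 7 of 17 H2A and 6 of 16 H2B promoters and in no other family, against 1.74% of all promoters. Some H2A and H2B genes are divergent neighbours, such as Hist1h2ag (minus strand, from 22042944) and Hist1h2bj (plus strand, from 22043214). Their windows overlap, so 1 site can count for both genes, and counts of any motif in such pairs are not separate. AAACACA, the core of the box known from H1 promoters, was found in 5 of 6 H1 promoters, against 7.18% of all. H4 promoters differed from the other families in CCAAT, which 3 of 12 held. The 250 bases before the start are shown for 3 H1 genes whose levels part below, with these motifs in capitals.
Hist1h1b, chr13:21780626-21780875, minus strand: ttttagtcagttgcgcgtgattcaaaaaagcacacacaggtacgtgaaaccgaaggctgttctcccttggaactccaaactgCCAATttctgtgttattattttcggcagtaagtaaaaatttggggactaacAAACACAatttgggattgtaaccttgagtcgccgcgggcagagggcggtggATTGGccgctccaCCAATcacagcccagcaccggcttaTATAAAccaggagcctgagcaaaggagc
Hist1h1e, chr13:23622559-23622808, minus strand: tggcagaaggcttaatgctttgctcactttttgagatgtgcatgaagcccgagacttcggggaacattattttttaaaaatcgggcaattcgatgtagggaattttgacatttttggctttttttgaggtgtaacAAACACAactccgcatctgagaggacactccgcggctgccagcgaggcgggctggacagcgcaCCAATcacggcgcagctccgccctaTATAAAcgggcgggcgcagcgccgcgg
Hist1h1c, chr13:23738557-23738806, plus strand: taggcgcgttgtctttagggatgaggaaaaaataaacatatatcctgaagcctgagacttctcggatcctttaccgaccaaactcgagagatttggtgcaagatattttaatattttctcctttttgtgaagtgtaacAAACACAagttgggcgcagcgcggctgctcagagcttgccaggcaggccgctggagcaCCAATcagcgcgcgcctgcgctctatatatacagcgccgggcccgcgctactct
All of these hold CCAAT on either strand and AAACACA, and Hist1h1b and Hist1h1e also hold TATAAA, which was not found in Hist1h1c. A match is a description of letters and was not tested as a binding site.

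UMIs (unique molecular identifiers) each stand for 1 captured message. Cells were kept if they had 200 genes or more and a mitochondrial share of UMIs below 20%: 8269 in control with a median of 11435 UMIs and 14468 in JQ1 with a median of 3948. Cells were classed by marker genes: 5291 control and 1379 JQ1 cells were keratinocytes, and 828 and 4555 were fibroblasts. The 12 keratinocyte markers set the keratinocyte gate, and all 12 also had a UMI in fibroblasts, so detection alone does not part these classes. Their summed level did differ, at 32739 CPM in keratinocytes and 583 CPM in fibroblasts of control, and 31420 and 241 CPM in JQ1. Markers of 2 classes were found in 226 control and 1662 JQ1 cells, which were left out of the classes. The libraries shared 40 barcodes.

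Cluster histone messages made up 51592 UMIs in control and 29829 UMIs in JQ1. As CPM, the UMIs of a gene per 1000000 UMIs of all genes, the control level was 444.6 (440.8 to 448.5) and the JQ1 level 311.6 (308.1 to 315.2), a ratio of 0.70 (0.69 to 0.71). The libraries differed in class mix to the same side: keratinocytes, a class with a high level, were 5291 of 8269 cells in control and 1379 of 14468 in JQ1. Within keratinocytes the control level was 466 CPM (462 to 471) and the JQ1 level 497 CPM (487 to 508), a ratio of 1.07 (1.04 to 1.09). This ratio was 0.99 as a mean of per-cell levels and 0.94 after division by the median ratio of all genes, so the sums gave no stable direction for keratinocytes.

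A few members held most of the messages. Hist1h2bc, an H2B gene, led in the control library with 156 CPM (154 to 158) and in the JQ1 library with 105.5 CPM (103.5 to 108). Hist1h1c, the gene for linker histone H1.2, had 81.7 CPM (80.1 to 83.4) and 60.5 CPM (59.0 to 62.1). Together they gave 53.5% of the cluster histone UMIs in control and 53.3% in JQ1. Next over both libraries was Hist3h2a, an H2A gene outside the main cluster, with 25.4 CPM (24.5 to 26.3) and 23.6 CPM (22.6 to 24.6). After these came followers of the cell cycle: Hist1h4i had 29.3 CPM (28.4 to 30.3) and 14.4 CPM (13.7 to 15.2), and Hist1h1b, the gene for H1.5, had 18.6 CPM (17.8 to 19.4) and 6.91 CPM (6.39 to 7.45). At the other end, 8 members had fewer than 50 UMIs over both libraries and 3 (Hist1h4m, Hist1h2ba and Hist1h2aa) had none.

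The members were then parted by the cell cycle. Cells with at least 3 UMIs of Mki67 and Top2a, 2 genes read in dividing cells, were taken as cycling (1018 in control, 492 in JQ1, of which 979 and 324 were keratinocytes) and cells with 0 as non-cycling (6207 and 13304). Over all members the level was 854.5 CPM in cycling and 319 CPM in non-cycling cells of control, and 795 and 254 CPM in JQ1. The ratio was 2.68 (2.63 to 2.73) in control and 3.13 (3.04 to 3.21) in JQ1. In keratinocytes alone it was 2.57 (2.52 to 2.62) and 2.30 (2.20 to 2.41). The gate needs UMIs, and cycling cells were deeper (medians of 23193 and 16731 UMIs) than non-cycling cells (7996 and 3727).

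Of the 54 members with at least 20 UMIs in both libraries, 41 were at least 2-fold higher in cycling cells in both, against 3.6% of 15071 genes that met the same minimum. A further 12 were under 2-fold in both, against 87.7% of genes, and Hist1h4j was above 2-fold in JQ1 (3.84-fold) and not in control (1.75-fold). The other 13 had too few UMIs. The 41 genes that follow cycling cells summed to 498 CPM in cycling and 57.9 CPM in non-cycling cells of control, and to 474 and 42.8 CPM in JQ1. Their ratio was 8.6-fold in control and 11.1-fold in JQ1 over all cells. In keratinocytes alone it went the other way between libraries, with 8.48-fold and 6.08-fold. The part of the class mix in the ratios over all cells was not tested. The 12 genes found in non-cycling cells summed to 350.3 and 259 CPM in control, and to 315 and 210.3 CPM in JQ1. The smaller set held 63.7% of the histone UMIs of control and 71.6% of those of JQ1. Within keratinocytes 28 of the 41 had enough UMIs, of which 25 kept a ratio of 2 or more in both libraries and 3 (Hist1h2bh, Hist1h3d and Hist1h4c) did so in 1 library. Of the 12, 11 had enough, and Hist2h4 and Hist1h4h passed 2-fold in control keratinocytes.

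**Figure D1:**
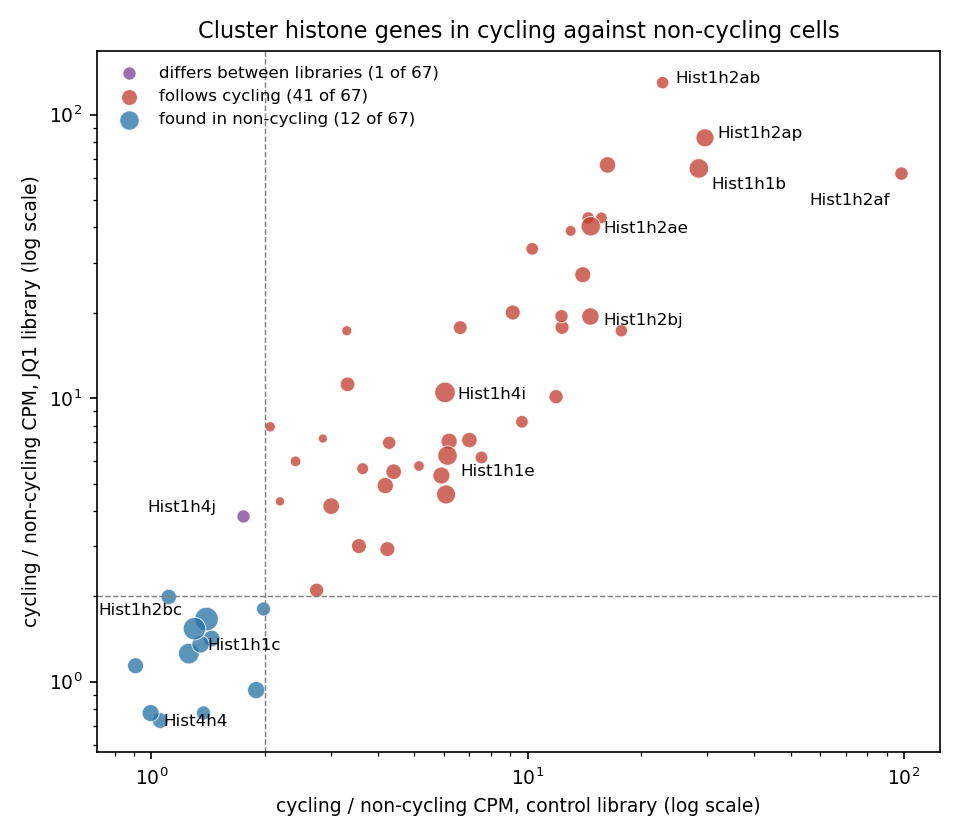
Level in cycling cells divided by the level in non-cycling cells for each of 54 cluster histone genes, in control (x axis) and JQ1 (y axis), both on log scales. Each point is a gene, larger with more UMIs, coloured by set, and dashed lines mark 2-fold: the 41 red genes lie above it in both libraries, the 12 blue genes, among them Hist1h2bc and Hist1h1c with the most UMIs, lie below it in both.

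Linker histones H1 compact the chromatin fibre, and 4 of the 5 measured H1 genes followed cycling cells. Hist1h1b showed the strongest contrast of them, with 74.3 against 2.61 CPM in control and 60.7 against 0.94 CPM in JQ1, which is 28.5-fold (24.5 to 33.3) and 64.6-fold (50.6 to 83.5). In keratinocytes alone its ratios were 25.1-fold and 14.2-fold. Hist1h1e, for H1.4, had 45.9 against 7.5 CPM in control and 35.7 against 5.69 CPM in JQ1. Hist1h1a, for H1.1, had 10.3 against 0.735 CPM in control and 15.9 against 0.584 CPM in JQ1. Hist1h1d, for H1.3, had 11.4 against 1.93 CPM in control and 13.6 against 2.55 CPM in JQ1. Hist1h1c stood apart from these, with 97.8 against 75.2 CPM in control and 88.9 against 57.8 CPM in JQ1, which is 1.3-fold in control and 1.54-fold in JQ1. Hist1h1t, the H1 gene of the testis, had 4 UMIs in control and 6 in JQ1.

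H2A and H2B form the outer dimers of the nucleosome, and 11 H2A and 12 H2B genes followed cycling cells. Hist1h2ae was the follower of H2A with the most UMIs, with 57.7 against 3.92 CPM in control and 68.8 against 1.7 CPM in JQ1. Hist1h2ap had 34.9 against 1.18 CPM in control and 32.6 against 0.394 CPM in JQ1. The rare Hist1h2af had 5.46 against 0.0555 CPM in control and 4.72 against 0.0762 CPM in JQ1, resting on 4 and 6 UMIs in non-cycling cells. Ratios in control and JQ1 were 11.9-fold and 10.1-fold for Hist2h2ac, 12.3-fold and 19.5-fold for Hist1h2ag and 10.3-fold and 33.6-fold for Hist1h2ak. They were 22.8-fold and 129.7-fold for Hist1h2ab, 15.7-fold and 43.2-fold for Hist1h2an, 2.85-fold and 7.21-fold for Hist1h2ad and 2.2-fold and 4.32-fold for Hist2h2ab. In non-cycling JQ1 cells Hist1h2ab had 2 UMIs (interval of its ratio 32.9 to 1120) and Hist1h2an had 4. The ratios of Hist1h2ab in keratinocytes alone were 18.8-fold and 12.3-fold. Hist2h2aa1 lay near the line, with 2.75-fold and 2.1-fold. The other measured H2A genes did not follow the cycle: Hist3h2a had 30.5 against 24.3 CPM in control and 28.9 against 23.0 CPM in JQ1, and Hist1h2ac had 5.23 against 3.87 CPM in control and 7.47 against 5.51 CPM in JQ1.

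Among H2B genes, Hist1h2bj was the follower with the most UMIs, with 24.4 against 1.66 CPM in control and 11.1 against 0.572 CPM in JQ1. Ratios in control and JQ1 were 17.7-fold and 17.3-fold for Hist1h2bk, 14.5-fold and 43.2-fold for Hist1h2bn and 12.3-fold and 17.8-fold for Hist1h2bm. They were 6.62-fold and 17.7-fold for Hist1h2bb, 7-fold and 7.12-fold for Hist2h2bb and 4.4-fold and 5.5-fold for Hist3h2ba. For Hist1h2bh they were 4.24-fold and 2.93-fold, for Hist1h2br 4.28-fold and 6.96-fold, for Hist1h2bf 3.64-fold and 5.64-fold and for Hist1h2bg 3.32-fold and 11.2-fold. Hist1h2bp had the lowest control ratio of all followers, 2.07-fold and 7.93-fold. Among keratinocytes only, Hist1h2bp stayed under 2-fold, and both intervals included 1. The control value there was 1.87 (0.989 to 3.48). For JQ1 it was 0.82 (0.127 to 4.22), from 3 UMIs in cycling and 5 in non-cycling keratinocytes. The JQ1 ratios of Hist1h2bk and Hist1h2bn rest on 7 UMIs each in non-cycling cells. Of the H2B genes found in non-cycling cells, Hist1h2bc had 197 against 141 CPM in control and 159.9 against 96.2 CPM in JQ1, Hist1h2be had 3.25 against 2.25 CPM in control and 6.26 against 4.41 CPM in JQ1 and Hist2h2be had 1.03 against 0.749 CPM in control and 1.43 against 1.84 CPM in JQ1.

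H3 and H4 form the inner tetramer of the nucleosome. Among the 9 H3 followers Hist1h3c had the strongest contrast in JQ1, with 14.7 against 0.901 CPM in control and 13.5 against 0.203 CPM in JQ1. The ratios of Hist1h3i were 9.13-fold and 20.1-fold, those of Hist1h3b 13.0-fold and 38.9-fold and those of Hist1h3g 9.65-fold and 8.25-fold. The JQ1 ratio of Hist1h3b rests on 4 UMIs in non-cycling cells. Hist1h3f had 7.54-fold and 6.18-fold, Hist1h3e 6.18-fold and 7.05-fold and Hist2h3b 5.14-fold and 5.76-fold. Hist1h3a (4.18-fold and 4.92-fold) and Hist1h3d (3.0-fold and 4.16-fold) were the weakest of the family. The 2 H3 genes of chromosome 3, Hist2h3c1 and Hist2h3c2, did not follow the cycle: Hist2h3c2 had 2.14 against 2.36 CPM in control and 3.29 against 2.9 CPM in JQ1 and Hist2h3c1 had 2.02 against 1.91 CPM in control and 2.31 against 3.16 CPM in JQ1.

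Of H4 genes, 5 followed cycling cells and 4 were found in non-cycling cells. Hist1h4i had 80.7 against 13.4 CPM in control and 75.5 against 7.2 CPM in JQ1, and Hist1h4d had 31.0 against 5.1 CPM in control and 33.0 against 7.2 CPM in JQ1. Ratios in control and JQ1 were 3.56-fold and 3.01-fold for Hist1h4c, 3.31-fold and 17.3-fold for Hist1h4b and 2.42-fold and 5.99-fold for Hist1h4n. The JQ1 ratio of Hist1h4b rests on 7 UMIs in non-cycling cells. On the other side, Hist4h4, the only member on chromosome 6, had 2.73 against 2.75 CPM in control and 4.72 against 6.1 CPM in JQ1. Hist1h4h had 4.55 against 2.4 CPM in control and 5.93 against 6.35 CPM in JQ1, so its level in JQ1 was as high in non-cycling as in cycling cells. Hist1h4a had 2.38 against 2.14 CPM in control and 3.19 against 1.6 CPM in JQ1 and Hist2h4 had 1.27 against 0.638 CPM in control and 2.64 against 1.46 CPM in JQ1. The H4 genes are thus the family that divides most evenly between the sets. The members nearest to the 2-fold line were Hist1h2bp (2.07 in control) and Hist2h2aa1 (2.10 in JQ1) just above it, and Hist2h4 (1.99 in control) and Hist1h4a (1.99 in JQ1) just below it.

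The sets also differed in the annotated end of the transcript, which the rule did not use. Members with at least 300 bases after the stem-loop were called extended, a limit set after the lengths were seen. Of the 12 genes found in non-cycling cells, 8 were extended, 2 were shorter and 2 (Hist1h2bc and Hist2h2be) had no match to the stem-loop pattern in the annotated transcript. Of the 41 followers, 9 were extended, 20 were shorter and 12 had no match. Several followers without a match have short annotated transcripts, such as 381 bases in Hist1h2bn, so their ends could not be compared. The median length after the stem-loop was 1212 bases (range 46 to 2445) in the first set and 51 bases (3 to 4884) in the second. Over the 17 extended genes of both sets the median ratio of cycling to non-cycling level was 3.0 in control and 2.93 in JQ1. Over the 22 shorter ones it was 8.14 and 14.2. The highest ratio of an extended gene, 7.54 in control and 10.5 in JQ1, lay under that of many shorter genes. The 2 shorter genes that did not follow the cycle were Hist1h4h, with 46 bases, and Hist1h4a, with 108 bases, and of the 9 extended followers Hist1h1d had the most, 4884 bases. Members share sequence and position, so these counts are a description. In promoters, TATAAA was found in 25 of 38 followers and in 2 of 9 genes found in non-cycling cells. CCAAT was found in 35 of 38 and 7 of 9, too few to part the sets, and it also varied by family. No promoter was read for Hist1h2bc.

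**Figure D2:**
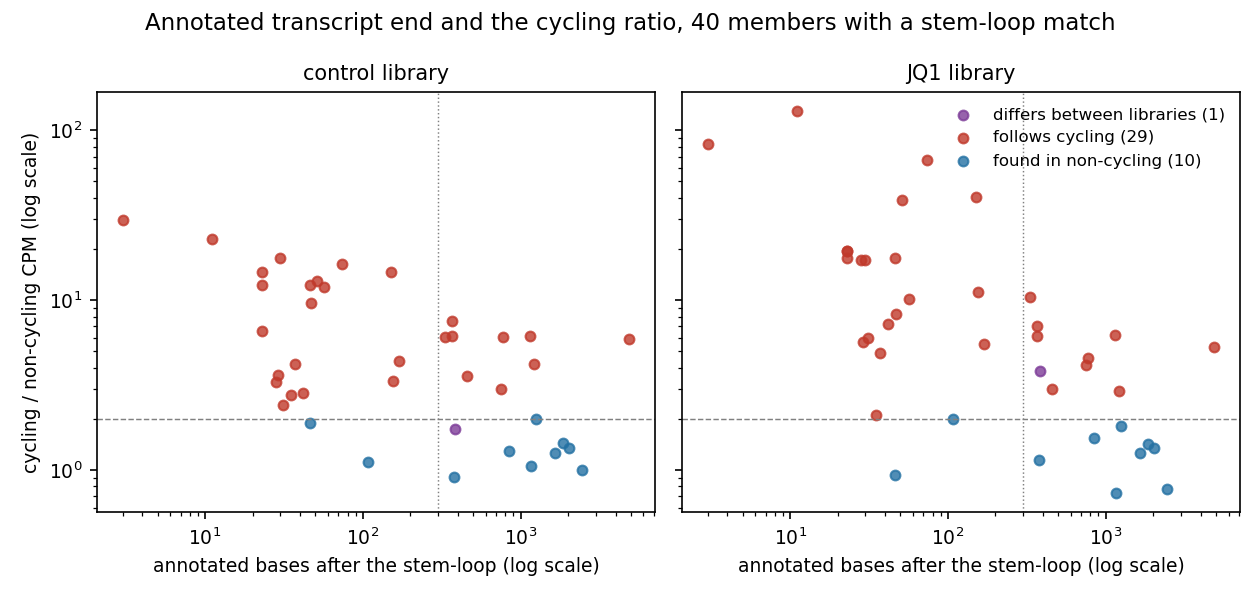
Bases annotated after the stem-loop (x axis, log scale) against the level in cycling cells divided by that in non-cycling cells (y axis, log scale) for the 40 measured members with a stem-loop match, in control (left) and JQ1 (right). The dotted line marks 300 bases and the dashed line 2-fold: 8 of the 10 blue genes lie to the right of 300 bases, and ratios above 11 lie to the left.

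Keratinocytes, cycling or not, were then grouped by phase, from lists of 18 S phase and 18 mitosis genes, each counted as present at 6 UMIs and 0.1% of the cell's UMIs. Control held 276 cells with the S phase list alone, 184 with both, 624 with the mitosis list alone and 4207 with neither. JQ1 held 178, 99, 144 and 958. The followers were highest where both lists were read. In control they summed to 67.1 CPM (65.3 to 69.0) with neither list, 236 CPM (224 to 248.9) with S phase alone, 1042 CPM (1012 to 1074) with both and 411 CPM (401 to 421) with mitosis alone. In JQ1 the sums were 73.9 CPM (68.9 to 79.2), 194 CPM (179 to 210.4), 768 CPM (728 to 809) and 324 CPM (304 to 346). Cells with both lists thus exceeded cells with mitosis alone 2.54-fold (2.44 to 2.64) in control and 2.37-fold (2.18 to 2.57) in JQ1. With every cell thinned to 2000 UMIs these ratios were 1.90 (1.67 to 2.15) and 1.28 (0.97 to 1.69), so that in JQ1 the interval then included 1. Of the 41 followers, 31 were highest in cells with both lists in both libraries, against 15.2% of genes. Followers were chosen for their level in cycling cells, which were 174 of the 184 control cells with both lists and 96 of the 99 in JQ1. The count is thus not independent of that choice.

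Hist1h1b, Hist1h2ae and Hist1h4i showed this course in control at different heights, but not every follower did. In control 2 of the 41 were highest with S phase alone and 3 with mitosis alone, and in JQ1 5 were highest with mitosis alone. Hist3h2ba was 3.61-fold higher in mitotic cells than in cells with both lists in control, and Hist1h2bj 1.14-fold higher in JQ1. In control Hist1h1b was at 3.85 CPM in cells with neither list, 33.5 CPM in S phase cells, 214 CPM in cells with both lists and 44.4 CPM in mitotic cells. Hist1h2ae was at 4.76 CPM in cells with neither list, 26.8 CPM in S phase cells, 136 CPM in cells with both lists and 42.6 CPM in mitotic cells. Hist1h4i differed in keeping more of its level outside these cells, at 15.6 CPM in cells with neither list, 39.3 CPM in S phase cells, 125 CPM in cells with both lists and 78.3 CPM in mitotic cells. Of the 12 genes found in non-cycling cells, 7 in control, 9 in JQ1 and 6 in both libraries were also highest in cells with both lists, against the 15.2% of genes given above. Their sum, in which Hist1h2bc weighs most, ran differently. They summed to 281 CPM (277 to 284) with neither list and 174 CPM (164 to 185) with S phase alone in control, so that they were lowest in S phase cells, and to 397 CPM (387 to 407) with mitosis alone. In JQ1 they had 279 CPM (269 to 289), 225 CPM (209 to 242.5) and 414.5 CPM (391.5 to 439). Hist1h2bc, the gene of this set with the most UMIs, was at 157 CPM in cells with neither list, 83.0 CPM in S phase cells, 125 CPM in cells with both lists and 241 CPM in mitotic cells in control and 170 CPM in cells with neither list, 129 CPM in S phase cells, 119 CPM in cells with both lists and 246 CPM in mitotic cells in JQ1. It was the only 1 of the 12 that was highest in mitotic cells in both libraries, against 6.87% of genes.

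**Figure D3:**
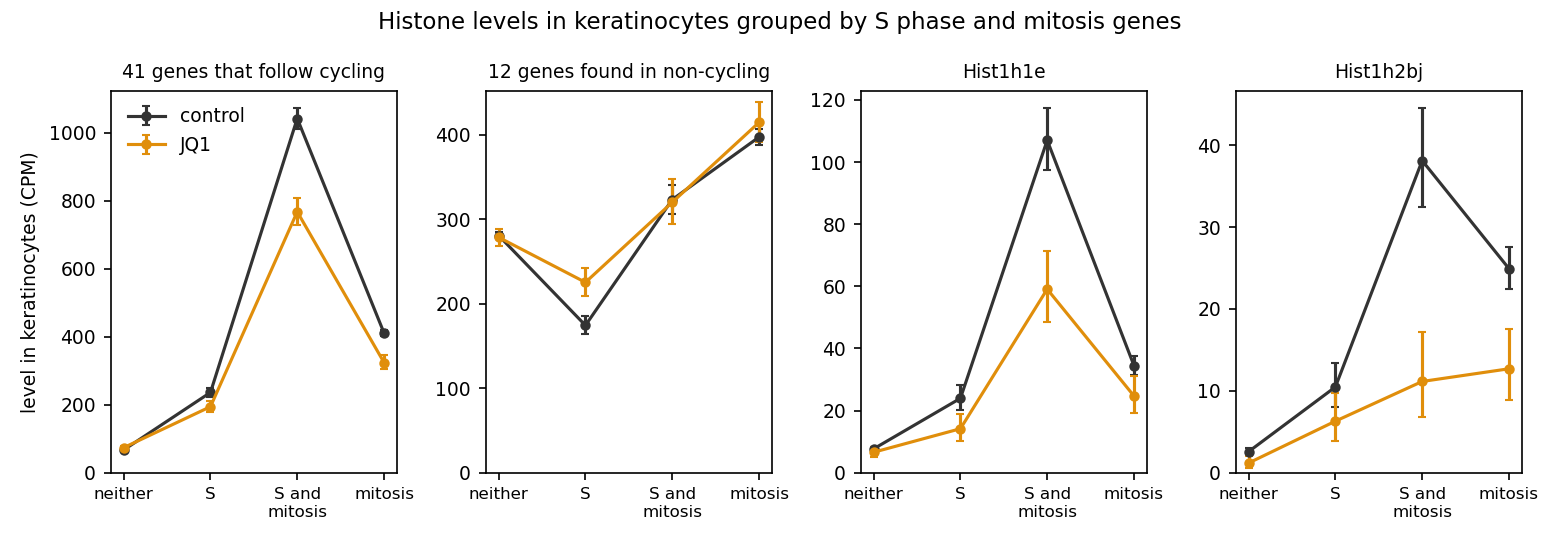
Levels in keratinocytes (y axis, CPM, from 0) by phase group (x axis: cells with neither gene list, the S phase list, both, or the mitosis list) for the summed followers, the summed genes found in non-cycling cells, Hist1h1e and Hist1h2bj. Points are control (black) and JQ1 (orange) with 95% counting intervals: with both lists the followers reached 1042 CPM in control and 768 CPM in JQ1, while the genes found in non-cycling cells were at 323 and 320 CPM.

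The summed level of the followers varied between cell classes. Control keratinocytes held 169.7 CPM (167 to 172) and JQ1 keratinocytes 199 CPM (193 to 206), of which 18.5% and 23.5% were cycling. Immature neutrophils, found as 144 cells in JQ1 and 9 in control, reached 378.5 CPM (342 to 417) in JQ1 with 11.1% cycling. Erythroid cells, found as 182 cells in JQ1 alone, reached 256 CPM (224 to 291.5) with 9.89% cycling. T cells held 289 CPM (241 to 343) in the control library, where 2.26% were cycling, and 111 CPM (91.5 to 133) in the other, where 1.52% were. Schwann cells of JQ1 held 103 CPM (87.0 to 121) with none of 764 cycling, and neutrophils 90.8 CPM (70.1 to 116) in the control library, where 0.245% were cycling, and 59.3 CPM (43.7 to 78.6) in the other, where none were. The order of the classes thus did not follow their share of cells past the cycling gate throughout. That gate needs UMIs, and medians were 1636 UMIs in JQ1 Schwann cells and 1600 (control) and 1712 (JQ1) in neutrophils. Shares in such shallow classes can therefore miss cycling cells. Fibroblasts had 35.6 CPM (29.4 to 42.6) and 39.0 CPM (36.4 to 41.8), and pericytes or smooth muscle cells 24.8 CPM (12.8 to 43.2) and 25.2 CPM (18.7 to 33.4). Endothelial cells had 53.9 CPM (44.6 to 64.5) and 55.5 CPM (50.9 to 60.3), and gland cells 51.5 CPM (39.4 to 66.2) and 35.6 CPM (32.8 to 38.5). In immature neutrophils of JQ1, Hist1h1c was at 132 CPM, above Hist1h2bc at 54.8 CPM, and Hist1h1e was at 35.9, Hist1h2ae at 32.1, Hist1h2ap at 30.2, Hist1h1d at 22.6 and Hist1h1b at 20.8 CPM. None of these had a UMI in the 9 control cells, which held 2 histone UMIs in all.

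The genes found in non-cycling cells varied less between classes. They were at 294 CPM (290.5 to 297) and 295 CPM (287 to 302.5) in keratinocytes, 218 CPM (203 to 235) and 209 CPM (203 to 216) in fibroblasts and 219 CPM (193 to 247) and 209 CPM (203 to 216) in gland cells. They were lower in endothelial cells, at 142 CPM (127 to 159) and 149 CPM (141 to 156.5), and in T cells, at 147 CPM (113 to 186.5) and 155 CPM (132 to 180.5). The highest level of a class with more than 50 cells was that of JQ1 Schwann cells, at 432 CPM (398 to 467). None of the 764 passed the cycling gate, and 750 had no UMI of Mki67 or Top2a. Their median was only 1636 UMIs and the gate needs UMIs, so this does not bound their share of cycling cells. Free RNA from lysed cells also enters droplets: the 12 keratinocyte markers summed to 32739 CPM in control keratinocytes and to 583 CPM in control and 241 CPM in JQ1 fibroblasts. The share of the histone level in other classes that came this way was not tested.

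**Figure D4:**
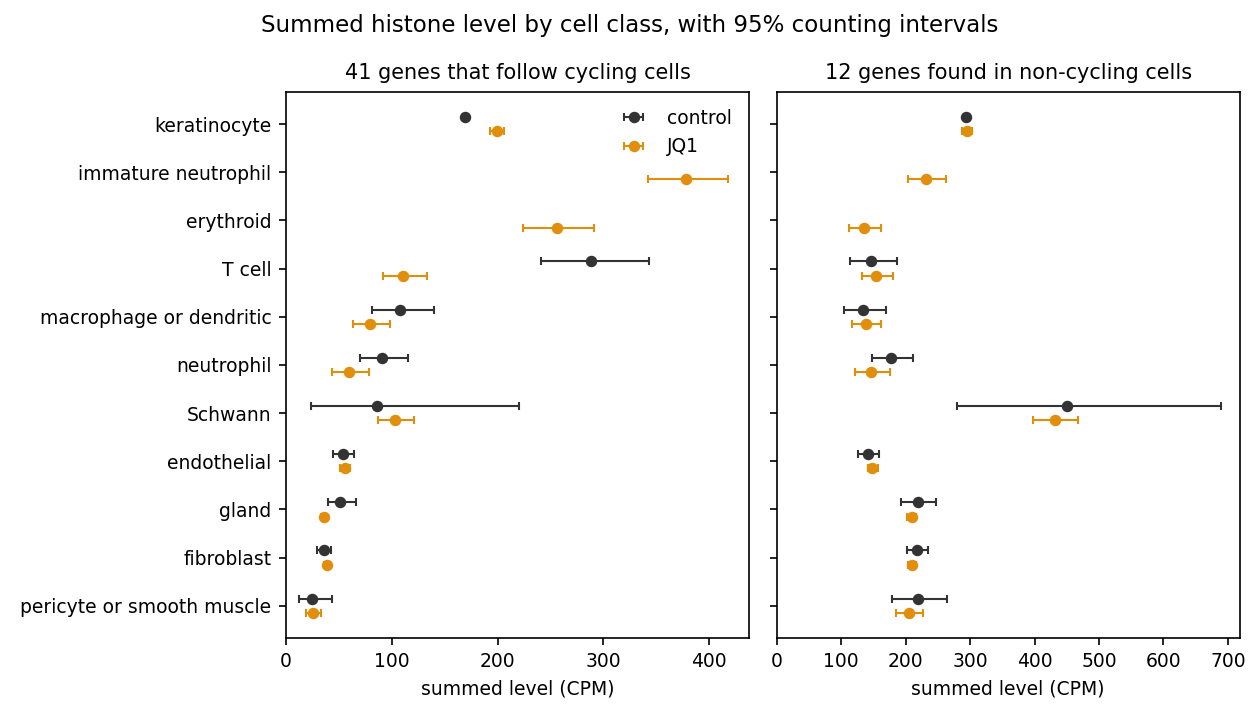
Summed level (x axis, CPM, from 0) of the 41 followers (left) and the 12 genes found in non-cycling cells (right) in each cell class with at least 20 cells, for control (black) and JQ1 (orange), with 95% counting intervals. The followers range from 25 CPM in pericytes to 379 CPM in JQ1 immature neutrophils, while the other set stays between 134 and 295 CPM except in Schwann cells.

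The comparison of JQ1 with control was made within keratinocytes, the class with the most cycling cells in both libraries. Over all keratinocytes the summed followers were 1.18-fold higher in JQ1 (1.13 to 1.22). The median ratio of the 41 followers was 0.175 on the log2 scale, near the 0.184 of all 14399 genes with at least 20 UMIs in either library. A median follower thus rose no more than a median gene. The share of cycling cells was also higher in JQ1, 23.5% (21.3 to 25.8) against 18.5% (17.5 to 19.6). With each cell thinned to 2000 UMIs the shares were 6.32% and 2.82%. Members with at least 20 UMIs in either library were compared singly and are called tested here, and past 2-fold describes size, not a statistical call. Of 58 such members, Hist2h4 was past 2-fold up, at a ratio of 2.31 (1.43 to 3.64), against 9.49% of genes. Hist1h3h was past 2-fold down, at 0.426 (0.112 to 1.16), against 5.06% of genes, on 51 and 4 UMIs.

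Within cycling keratinocytes the followers were lower in JQ1. They summed to 496.5 CPM in control and 423 CPM in JQ1, a ratio of 0.852 (0.818 to 0.888). Of 39 followers tested, 28 were below 1, with a median ratio of 0.816, where the median over all 12125 genes tested was above 1 (0.16 on the log2 scale) and 35.2% of genes were below 1. The interval lay below 1 for 12 of the 39 and above 1 for 1 (Hist1h2ae), against 14.4% and 35.3% of all genes. Some of the 39, such as Hist1h2bk with 85 and 10 UMIs, met the minimum through control alone, which has more UMIs in these cells. These counts lean on that minimum, and the closing section gives the count below 1 with the minimum on the mean level of both libraries. The genes found in non-cycling cells summed to 352 and 338 CPM in the same cells, a ratio of 0.961 (0.916 to 1.01). The gate bears on the followers' ratio: with cycling cells taken at 1 UMI of Mki67 and Top2a it was 0.975 (0.938 to 1.01), and with cells thinned to 2000 UMIs 0.538 (0.414 to 0.692).

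Hist1h2bj, an H2B gene, showed the lowest ratio of the followers tested. It was at 24.7 CPM in control and 9.74 CPM in JQ1, from 608 and 64 UMIs, a ratio of 0.394 (0.30 to 0.51). Past 2-fold down were also Hist1h2bk at 0.44 (0.204 to 0.85) and Hist1h2ag at 0.476 (0.252 to 0.834), and, outside the followers for want of UMIs, Hist1h3h at 0.101 (0.00249 to 0.60), on 37 and 1 UMIs. These made 4 of 55 members tested, against 4.01% of genes, and no member was past 2-fold up, against 5.51%. Hist1h2bk, Hist1h2ag and Hist1h3h had 20 UMIs in control alone, the library with more UMIs in these cells, so nothing is read from that count, and 2 of 34 were left when the minimum was set on the mean level of both libraries. Of the followers with 100 UMIs or more in these cells, next came Hist1h3a at 0.519 (0.336 to 0.773), Hist1h4c at 0.524 (0.277 to 0.921) and Hist1h3e at 0.597 (0.419 to 0.833). The H1 genes Hist1h1e and Hist1h1b were lower as well: Hist1h1e was at 46.1 CPM in control and 31.2 CPM in JQ1, a ratio of 0.676 (0.58 to 0.785), and Hist1h1b at 74.3 CPM in control and 58.6 CPM in JQ1, a ratio of 0.789 (0.705 to 0.881). Not every follower was lower. Hist1h4i was at 80.0 CPM in control and 77.5 CPM in JQ1, a ratio of 0.968 (0.876 to 1.07), Hist1h4d had a ratio of 0.942 (0.799 to 1.1), and Hist1h2ae had one of 1.13 (1.01 to 1.26). H2A thus held both a gene past 2-fold down, Hist1h2ag, and the only follower with an interval above 1.

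**Figure D5:**
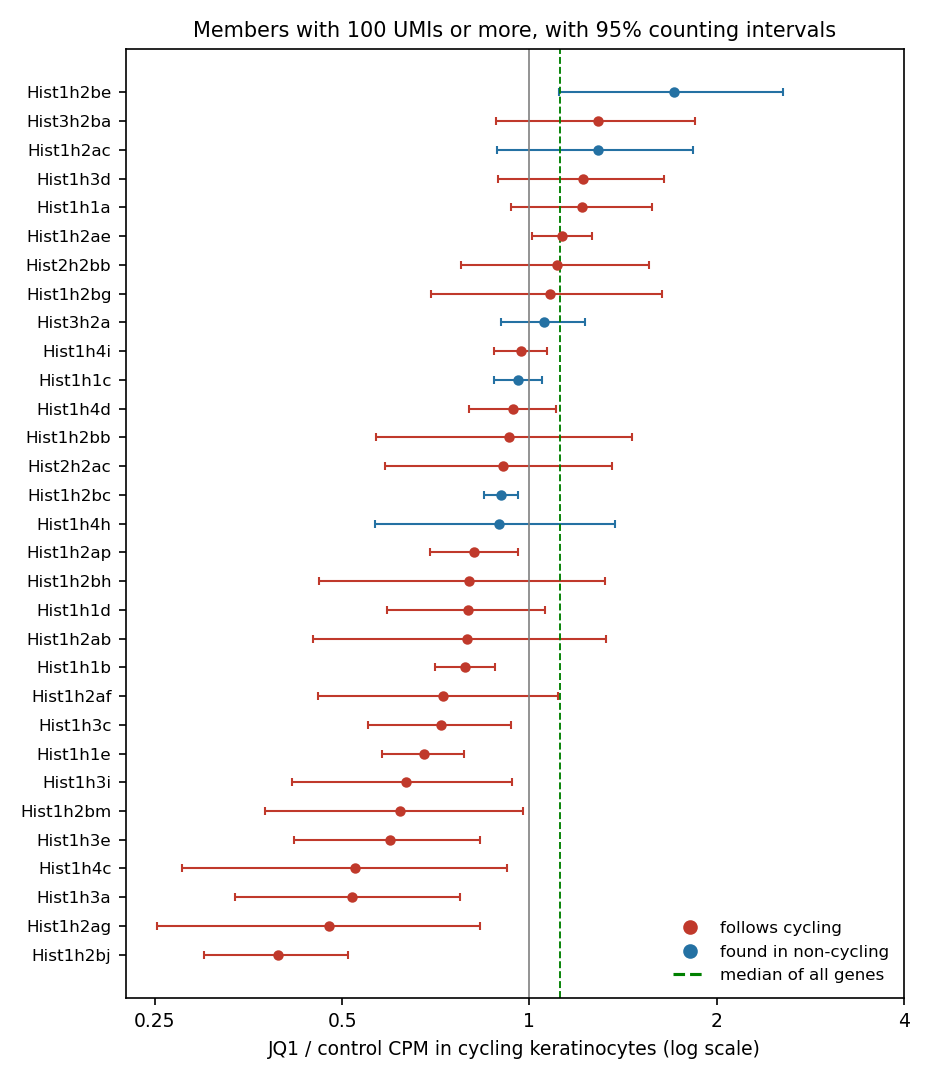
Level in JQ1 divided by level in control in cycling keratinocytes (x axis, log scale) for the 31 members with at least 100 UMIs there, a row for each gene, with 95% counting intervals. The solid line marks 1 and the dashed line the median of all genes: followers (red) run from 0.394 for Hist1h2bj to 1.29 for Hist3h2ba, and genes found in non-cycling cells (blue) from 0.894 to 1.71.

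Ratios were also taken within phase groups, which are set by gene lists in place of Mki67 and Top2a. These groups depend on depth as well, and cells with both lists had medians of 21976 UMIs in control and 16522 in JQ1. Mki67 and Top2a summed to 650 CPM (control) and 1003 CPM (JQ1) in those cells. The part of gates and depth in the ratios was not tested. The followers' JQ1-to-control ratio was 0.823 (0.747 to 0.905) in S phase cells, 0.737 (0.693 to 0.783) in cells with both lists and 0.789 (0.736 to 0.845) in mitotic cells, against 1.1 (1.02 to 1.19) in cells with neither list. For Hist1h2bj the ratios were 0.601 (0.344 to 1.01), 0.292 (0.174 to 0.467), 0.509 (0.353 to 0.715) and 0.462 (0.242 to 0.808). For Hist1h1e they were 0.592 (0.414 to 0.832), 0.552 (0.443 to 0.684), 0.717 (0.552 to 0.918) and 0.859 (0.663 to 1.1). The libraries also differed in the kinds of keratinocyte they held, since many control keratinocytes carry Stmn2 or Krt42. Among cycling keratinocytes with no UMI of either (579 in control, 284 in JQ1) the followers' ratio was 0.715 (0.682 to 0.749), and among cycling cells rich in the basal keratin Krt15 (149 and 111) it was 0.733 (0.67 to 0.801). Hist1h2bj was at 0.312 (0.228 to 0.419) in the first and 0.698 (0.392 to 1.21) in the second, where its interval included 1.

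In non-cycling keratinocytes the sum over all members was equal within counting error, at 332.5 CPM in control and 332.4 CPM in JQ1, a ratio of 1.0 (0.962 to 1.04). Single members differed in either direction. Hist1h1c was lower in JQ1, at 78.0 CPM in control and 50.9 CPM in JQ1, a ratio of 0.652 (0.591 to 0.718) on 4659 and 457 UMIs. Hist1h2bc was at 152 CPM in control and 159 CPM in JQ1, a ratio of 1.05 (0.99 to 1.11), and Hist3h2a had a ratio of 0.964 (0.833 to 1.11). The H1 and H2B genes that lead the non-cycling level thus parted. Of 44 members tested, 4 were past 2-fold up, against 8.16% of genes: Hist2h4 at 3.19 (1.46 to 6.59), Hist1h2bh at 2.26 (1.2 to 4.07), Hist2h2bb at 2.22 (1.12 to 4.14) and Hist1h2be at 2.13 (1.42 to 3.15). Past 2-fold down, against 5.66% of genes, were Hist1h2bf and Hist1h2ak, which met the minimum through control alone and had 1 JQ1 UMI each. Hist2h3c2 had a ratio of 1.76 (1.21 to 2.53) and Hist1h4h one of 1.59 (1.03 to 2.36). Hist1h2be and Hist1h1e overlap on the same strand of chromosome 13, and 7 members in all overlap another annotated gene on their strand, so their values may hold reads of the neighbour.

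In other classes the sums of JQ1 and control were mostly close. For all members the JQ1-to-control ratio was 0.979 (0.91 to 1.05) in fibroblasts, 1.05 (0.942 to 1.16) in endothelial cells, 0.946 (0.771 to 1.17) in pericytes or smooth muscle cells and 0.909 (0.811 to 1.02) in gland cells. It was 0.898 (0.721 to 1.12) in macrophages or dendritic cells and 0.766 (0.619 to 0.947) in neutrophils. T cells stood apart at 0.611 (0.508 to 0.737), from 197 UMIs in 177 control cells and 280 UMIs in 329 JQ1 cells. Their followers were at 289 CPM (241 to 343) and 111 CPM (91.5 to 133), and 48 of the 130 control UMIs came from 4 cycling cells. In non-cycling T cells the followers were at 171 and 104.5 CPM, a ratio of 0.61 (0.436 to 0.857), and over all members the ratio was 0.826 (0.659 to 1.04), with 1 inside the interval. The 12 keratinocyte markers were also lower in JQ1, at 848 and 362 CPM in T cells and 938.5 and 495 CPM in neutrophils, and their part in these differences was not tested.

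Single members past 2-fold outside keratinocytes were few and rested on few control UMIs. In fibroblasts Hist2h3c1 was at 0.905 CPM in control (3 UMIs) and 3.88 CPM in JQ1 (82 UMIs), a JQ1-to-control ratio of 4.29 (1.42 to 21.2). Hist2h3c2 was at a ratio of 2.39 (0.889 to 9.07), Hist2h2bb at 2.25 (0.72 to 11.3), Hist1h1d at 3.45 (0.901 to 29.4) and Hist1h3d at 5.34 (0.895 to 217) in the same cells, with intervals that include 1, and Hist2h2aa1 at 0.436 (0.197 to 1.06). Hist1h1b had no UMI in control fibroblasts and 36 in JQ1, so that its ratio has a lower bound of 1.46 and no upper one. These made 6 of 24 members past 2-fold up, against 6.39% of genes, and 1 down, against 1.64%. All of them had 20 UMIs in JQ1 alone, so the count is no result about the members, and with the minimum on the mean level of both libraries 0 of 6 members were past 2-fold up. In endothelial cells Hist1h2ae was at 2.28 CPM in control (5 UMIs) and 5.76 CPM in JQ1 (56 UMIs), a JQ1-to-control ratio of 2.52 (1.02 to 8.07), 1 of 13 members against 6.65% of genes. In pericytes or smooth muscle cells Hist3h2a was at 10.3 CPM in control (5 UMIs) and 30.4 CPM in JQ1 (59 UMIs), a JQ1-to-control ratio of 2.95 (1.19 to 9.41), 1 of 4 against 9.46%. Both genes also met the minimum through JQ1 alone.

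In gland cells 1 of 15 members was past 2-fold up, against 21.4% of genes, and 4 were down, against 3.15%. Hist1h4h was at 3.38 CPM in control (4 UMIs) and 12.1 CPM in JQ1 (205 UMIs), a JQ1-to-control ratio of 3.57 (1.37 to 13.2). The lower members were Hist4h4 at 0.356 (0.172 to 0.827), Hist1h1d at 0.41 (0.20 to 0.946), Hist2h3c2 at 0.446 (0.227 to 0.974) and Hist1h1e at 0.493 (0.274 to 0.961). The control side of these rests on 80 cells and 9 to 13 UMIs a gene. In neutrophils Hist1h1c was at 60.0 CPM in control (43 UMIs) and 28.4 CPM in JQ1 (23 UMIs), a JQ1-to-control ratio of 0.473 (0.272 to 0.803), 1 of 3 members tested past 2-fold down against 5.55% of genes. Schwann cells of control (26 cells, 25 histone UMIs) were too few for single genes: Hist4h4 had 2 UMIs there, Hist1h1c had 1 and Hist3h2ba had none, against 28, 101 and 55 UMIs in JQ1. By size 2 of 5 members were past 2-fold up there, against 28.6% of genes, and 1 down, against 9.91%.

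Genes that make, end and deposit histone messages and proteins were read beside the members, from lists chosen with the members. In cycling keratinocytes all 18 S phase genes had a JQ1-to-control ratio above 1, with a median of 1.51 (range 1.07 to 1.93). The mix of phases also differed: of 979 cycling keratinocytes of control 130 had the S phase list alone and 537 the mitosis list alone, against 87 and 117 of 324 in JQ1. Over all keratinocytes with the S phase list alone the S phase genes summed to 1649 CPM (control) and 1794 CPM (JQ1), and over those with both lists to 1772 and 1838 CPM. The part of the phase mix in the ratios of cycling cells was not tested. Mcm5, a subunit of the replicative helicase, was at 52.5 CPM in control and 89.9 CPM in JQ1, a ratio of 1.71 (1.55 to 1.89). Rrm2, a subunit of the enzyme that makes deoxynucleotides, was at 66.1 CPM in control and 98.6 CPM in JQ1, a ratio of 1.49 (1.36 to 1.63). Of the 18 mitosis genes, 9 were above and 9 below 1, with a median of 0.955. Slbp, which binds the stem-loop, was at 68.1 CPM in control and 117 CPM in JQ1, a ratio of 1.71 (1.57 to 1.87). Npat, the coactivator of the clusters, was at 17.6 CPM in control and 23.4 CPM in JQ1, a ratio of 1.33 (1.1 to 1.6). Of 11 genes for histone transcription and 3′ processing with enough UMIs, 9 were above 1, and of 13 histone chaperones 12 were, among them Asf1b (25.1 CPM in control and 33.3 CPM in JQ1, a ratio of 1.33 (1.13 to 1.55)) and Chaf1b (20.7 CPM in control and 29.5 CPM in JQ1, a ratio of 1.43 (1.2 to 1.69)). Of all 12125 genes tested in cycling keratinocytes, 35.2% had a ratio under 1, so most genes were above 1 there too. The differences between these lists were not tested.

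Most histone genes outside the clusters give polyadenylated messages, and they served as a comparison. Of 11, 6 were at least 2-fold higher in cycling cells in both libraries and 4 under 2-fold in both. In cycling keratinocytes H2afz, for the variant H2A.Z, was at 2428 CPM in control and 2653 CPM in JQ1, a ratio of 1.09 (1.07 to 1.11). H2afx, whose message can end in a stem-loop or a tail, was at 183 CPM in control and 126 CPM in JQ1, a ratio of 0.691 (0.641 to 0.744). Cenpa, the H3 variant of centromeres, was at 266 CPM in control and 192 CPM in JQ1, a ratio of 0.721 (0.678 to 0.766), and the replacement linker histone H1f0 was at 159 CPM in control and 164 CPM in JQ1, a ratio of 1.03 (0.962 to 1.1). Of the 11, 7 had a ratio above 1 in these cells (6 with an interval above 1) and 4 below 1 (each with an interval below 1), with a median of 1.09. Of all genes tested there 35.2% were below 1, near the share of the variants. Their interval lay above 1 for 35.3% of all genes and below 1 for 14.4%. Over all keratinocytes none of the 11 variants was past 2-fold in either direction, and in the processing list Zfp473, a zinc finger protein of the histone pre-mRNA complex, was past 2-fold up at 3.33, on a level of 0.304 and 1.01 CPM.

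The members with few UMIs were accounted for as follows. Too few UMIs for the split were found in 13 members: 1 H1, 5 H2A, 3 H2B, 1 H3 and 3 H4 genes. Hist1h3h, an H3 gene, had 53 UMIs in control and 7 in JQ1, and Hist1h2bl, an H2B gene, had 45 and 10. The other members of this set had at most 27 in a library. None of the 13 was annotated with 300 or more bases after a stem-loop. For the 3 members with no UMI, the upper limit of the exact Poisson interval was 0.0318 CPM in control and 0.0385 CPM in JQ1.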

How the data were processed

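The deposited values are raw counts of UMIs per gene and cell barcode in 2 libraries, made by the authors with Cell Ranger 3.1.0 and Seurat 4.0.0 on mm10, per the submitters' processing notes. The sources used here name neither the annotation release behind the counts nor the treatment of reads that match several genes. Cells were kept from 200 genes upward if mitochondrial UMIs stayed below 20%. Classes needed at least 3 UMIs from at least 2 markers and 0.1% of a cell's UMIs (keratinocytes 0.5%, gland 1%, erythroid 10%), shares set after the marker distributions were seen. Cells that passed 2 gates were left out, and no doublet caller was used in the values reported. The control library held 116038442 UMIs in kept cells and the JQ1 library 95728339. UMIs were summed per library, class and cycling state and given as CPM. With 1 library per group no test was run. Scripts ran on scanpy 1.11.5, scipy 1.17.1, numpy 2.4.6, pandas 2.3.3, matplotlib 3.10.9 and Python 3.11.15 and were tested on simulated data. Members with at least 50 UMIs over both libraries are named with values, the 12 with the most UMIs in more detail, together with members past 2-fold in a class. The members and the other gene lists were chosen with earlier results of these data known. Alternatives are listed in the closing section.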

Additional observations from a re-analysis of the deposited data

Results flagged for a closer look

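For 2 members the JQ1-to-control ratio lay on opposite sides of 1 in keratinocytes and in gland cells, with both intervals clear of 1. These members were picked out for this pattern, and the share of all genes that show it was not counted. The median ratio of all genes tested, on the log2 scale, was 0.184 in keratinocytes and 0.427 in gland cells. Hist4h4, an H4 gene, had a ratio of 1.72 (1.28 to 2.29) in keratinocytes and 0.356 (0.172 to 0.827) in gland cells. Hist2h3c2, an H3 gene, had a ratio of 1.56 (1.18 to 2.03) in keratinocytes and 0.446 (0.227 to 0.974) in gland cells. The difference between the classes was not tested, as each rests on 1 library per group, and the control gland values rest on 80 cells with 9 UMIs of Hist4h4 and 10 UMIs of Hist2h3c2.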

How the results depend on the processing

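The results were recomputed under 21 settings, which gave 174 alternative values for 27 results; settings with Krt15, with Stmn2 and Krt42, with the median of all genes, with shared barcodes, with keratinocytes only, with thinning at a 1 UMI gate, with the minimum on the mean level and with phase lists at 0.07% were chosen after seeing the data. No paired analysis was possible because each group has 1 library, and for the same reason no replicate could be left out. Under the stricter cell filter and without Scrublet calls the library ratio (0.706 and 0.704), the keratinocyte ratio (1.07 and 1.07) and that of the followers in cycling keratinocytes (0.870 and 0.846) stayed within the main intervals, and with gates doubled the keratinocyte ratio was 1.06 and the fibroblast ratio 1.10. The library ratio of 0.70 was 0.684 with every deposited barcode, 0.616 without mitochondrial, ribosomal, haemoglobin and keratin genes, 0.751 as a mean of per-cell CPM, 0.714 without Hist1h2bc and 0.533 over the median of all genes. The keratinocyte ratio of 1.07 turned to 0.994 as a mean of per-cell CPM and to 0.939 over the median of all genes, and was 1.15 with Krt15. The ratio in non-cycling keratinocytes was 0.960 without Hist1h2bc, 1.05 with Krt15 and 0.904 over the median of all genes. In cycling keratinocytes the ratio of all members (0.896) was 0.819 as a mean of per-cell CPM, 0.990 at 1 UMI, 0.649 thinned, 0.848 without Stmn2 or Krt42 and 0.8004 over the median of all genes. That of the followers (0.852) was 0.755, 0.975, 0.538, 0.715 and 0.762 in the same order, and 0.733 with Krt15. The cycling to non-cycling ratio of control (2.68) was 2.94 as a mean of per-cell CPM, 3.70 without Hist1h2bc, 2.90 at 5 UMIs, 2.05 at 1 UMI, 3.85 thinned and 2.57 in keratinocytes. That of JQ1 (3.13) was 3.57 without the abundant gene groups, 4.02 without Hist1h2bc, 3.47 at 5 UMIs, 2.27 at 1 UMI, 5.43 thinned and 2.30 in keratinocytes. Cycling shares of keratinocytes were 14.3% and 18.4% at 5 UMIs, 35.9% and 39.7% at 1 UMI, 2.82% and 6.32% thinned, and 14.6% in control when thinned at 1 UMI. The ratio of cells with both phase lists to mitotic cells was 1.90 and 1.28 thinned, and 2.96 and 2.03 with lists at 0.07%. Of 41 followers counted, 18 were counted after thinning (25 members measured) and 25 in keratinocytes, and of 12 genes found in non-cycling cells 5 after thinning and 7 at 1.5-fold, since fewer members pass the UMI minimum or the lower fold. With the minimum on the mean level of both libraries, 19 of 26 followers against 28 of 39 had a ratio under 1 in cycling keratinocytes, 2 members against 4 were past 2-fold down there and 0 against 6 past 2-fold up in fibroblasts, since fewer members pass. The cause of the other shifts was not tested.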

Other observations

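Some classes held too few cells for the comparisons above. The 14 mast cells of JQ1 had 29 cluster histone UMIs, or 1119 CPM (749.6 to 1607), of which 26 came from the genes found in non-cycling cells, while the 12 mast cells of control had 4 UMIs. The 19 cycling endothelial cells of JQ1 had 738 CPM of the followers and the 7 of control 364.5 CPM, a ratio of 2.02 (1.39 to 3.05) on 184 and 32 UMIs. The 16 cycling fibroblasts of JQ1 had 401 CPM, and the 2 of control held 2 UMIs of the followers.

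Schwann cells were read at a fixed depth as well. With each cell thinned to 2000 UMIs, 48.1% (41.4 to 54.7) of 231 JQ1 Schwann cells held a UMI of the genes found in non-cycling cells, against 31.8% (30.4 to 33.3) of 3955 JQ1 fibroblasts and 37.2% (34.5 to 40) of 1219 JQ1 keratinocytes. Unthinned shares were 46.6%, 50.4% and 72.9%. The thinning left out 533 of 764 Schwann cells, 600 of 4555 fibroblasts and 160 of 1379 keratinocytes.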
